A study of Macaca mulatta with 12 samples.

Results

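Serpins, the plasminogen system and the coagulation genes were followed through the regression of the rhesus macaque corpus luteum, the short-lived progesterone source left in the ovary after ovulation. Genes were taken by the symbol of the platform annotation: all SERPIN and THBS (thrombospondin) symbols except SERPING1, the numbered clotting factors and thrombin-type receptors, and PLAU, PLAUR, PLAT, PLG, THBD, TFPI and TFPI2. This gave 48 of 14132 genes, carried by 101 of 52707 tested probe sets, and each gene was read from its brightest probe set, the one of highest mean value. Of the 48 genes, 20 had 1 probe set and 28 had several. PLAT, SERPINF2 and F8 had no probe set under a symbol of their own in the annotation used and are not analysed here. One of the 48, F11R, matched the naming pattern although its product, a junctional adhesion molecule of epithelial and endothelial cells, is not a clotting factor.

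Total RNA came from frozen corpora lutea of female macaques with normal menstrual cycles, 1 sample per one-colour Affymetrix array, so that p-values measure the spread between these samples. Late regressed glands (4 arrays) were taken on days 14 to 16 after the LH surge with serum progesterone below 0.5 ng/ml. Late functional glands (4 arrays) were from the same days with serum progesterone above 1.5 ng/ml. Mid-late glands (4 arrays, days 10 to 12) were the study's baseline. No group carried a drug treatment or a genetic change in the labels, and the arrays of a group are called biological replicates there. Whether every gland came from a different animal is not stated in the sources used here.

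Plasminogen is cut to plasmin by its activators, the urokinase and tissue types, at cell surfaces that carry the urokinase receptor, and plasmin degrades fibrin and pericellular matrix. Clotting starts when tissue factor meets factor VII and ends with thrombin, which makes fibrin and also signals through protease-activated receptors. Serpins are suicide inhibitors that trap such proteases, although some members carry hormones or fold collagen instead, and thrombospondins are matricellular proteins of which several restrain vessel growth. In the corpus luteum these genes belong to the vascular and matrix remodelling that accompanies its growth and its loss. The roles given below are those of the human or mouse proteins.

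Values are RMA values on the log2 scale, as deposited. Differences are differences of group means from limma, with the SE of the fit, and adjusted p-values are limma's with Benjamini-Hochberg adjustment over all 52707 probe sets. A gene was said to rise or fall where this adjusted p was below 0.05. A probe set was taken as low in signal when its mean over the 12 arrays was at or below 4.64, the 95th percentile of 674 probe sets with the prefix NC, which carry no gene symbol and mostly give little signal. By this limit 31 of the 48 genes were above low signal and 17 were not. In whole glands, fewer cells of a type and less RNA per cell cannot be told apart.

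The late regressed arrays stood apart from each other. Late regressed arrays 2 and 3 had scores of 93.2 and 81.6 on the first principal component of all tested probe sets (40.8% of the variance), and no other array exceeded 12.6. In late regressed array 2 there was also a 3′ to 5′ difference of the actin and GAPDH control probe sets of 2.52, against 0.46 to 0.70 on the other 11 arrays. Markers of steroidogenic luteal cells were present in all groups, with none of the 9 measured at low signal. Their mean level per array ran from 8.31 to 9.98 in late regressed, 9.95 to 10.40 in late functional and 10.43 to 10.61 in mid-late glands. The 13 measured macrophage markers, none at low signal, averaged 7.74 to 9.53, 8.61 to 8.72 and 6.56 to 8.35 in these groups. Many results below are therefore also given without late regressed arrays 2 and 3. A result given only with all arrays may still rest on them.

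Between late regressed and mid-late glands, PLAU and F11R rose and TFPI and SERPINA9 fell, and 44 of the 48 genes did not pass. The 4 called genes are 8.33% of the members, while 13.1% of all 14132 genes passed in this comparison, 7.6% as higher and 5.51% as lower. Among the 31 members above low signal the same 4 passed, against 16.5% of the 9424 genes above that limit. The members' median difference was -0.09, that of all genes -0.02. For the 31 members above low signal it was 0.05, against 0.06 for all genes above that limit, and for the 17 at low signal -0.15. The groups did not overlap for 9 members (18.8%), against 20.7% of all genes. Without late regressed arrays 2 and 3 none of the members passed limma's test, and 2.55% of all genes did. The members' count was 9 without late regressed array 1, 6 without late regressed array 4 and 2 without late regressed array 2. A single member passed when late regressed array 3 or either of mid-late arrays 2 and 3 was omitted, and 0 passed when mid-late array 1 was. An unadjusted p below 0.05 was found for 17 members with all arrays (35.4%, against 35.8% of all genes).

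**Figure D1:**
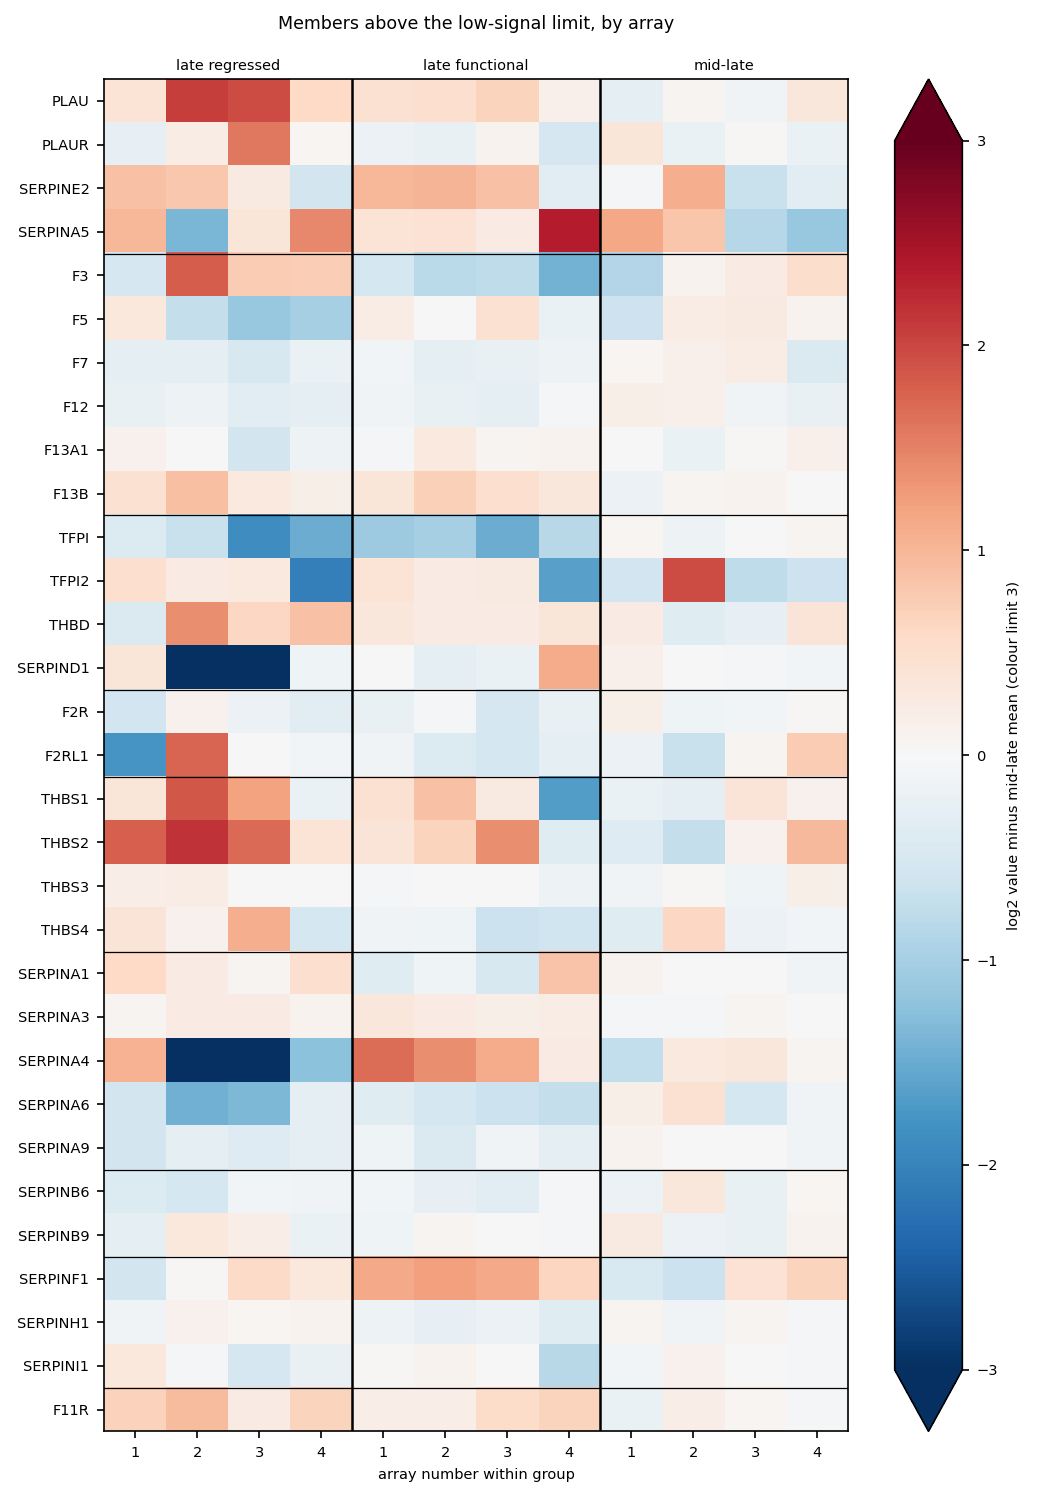
The 31 members above low signal on each array, drawn as the log2 value minus the gene's mid-late mean, with arrays 1 to 4 of the late regressed, late functional and mid-late groups from left to right. Rows follow the roles in the text, separated by lines: SERPIND1 and SERPINA4 are dark blue on late regressed arrays 2 and 3, and TFPI is blue on all 8 late arrays.

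The plasminogen system was represented by PLAU, PLAUR, PLG and the inhibitors SERPINE2, SERPINB2 and SERPINA5, of which 1 rose, 0 fell and 5 did not pass between late regressed and mid-late glands. PLAU, which encodes the urokinase-type activator, had 8.24, 9.91, 9.78 and 8.43 on late regressed arrays, 8.29, 8.35, 8.51 and 7.99 on late functional arrays and 7.54, 7.90, 7.72 and 8.17 on mid-late arrays. All late regressed values lay above all mid-late ones, by a narrow margin for late regressed array 1 over mid-late array 4, and arrays 2 and 3 lay above the other 10, which ran from 7.54 to 8.51. The rise was 2.39-fold, a log2 difference of 1.26 (SE 0.34) with a limma adjusted p of 0.0405. Without arrays 2 and 3 the difference was 0.50 and limma's adjusted p 0.151. The PLAU call was also lost without late regressed array 2 (0.98, adjusted p 0.076) or 3 (1.03, 0.101), and without mid-late array 1 (0.1), 2 (0.0844), 3 (0.0831) or 4 (0.0552). Leaving out late functional array 1 (0.0582), 2 (0.058) or 3 (0.0567) ended it as well, with the difference unmoved. The second PLAU probe set gave 0.74 (limma adjusted p 0.086), with its highest value on late regressed array 3. Macrophage markers averaged 8.28, 8.34, 9.53 and 7.74 on late regressed arrays 1 to 4, against 8.61 to 8.72 on late functional arrays. Their average was thus highest on late regressed array 3, while the main PLAU probe set was highest on array 2. C1QA, C1QB and C1QC were lower on late regressed array 3 than on any late functional array. The part of these markers in the PLAU difference was not tested.

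PLAUR, the cell-surface receptor of urokinase, had 5.72, 6.19, 7.56 and 6.04 on late regressed arrays, 5.80, 5.76, 6.09 and 5.46 on late functional arrays and 6.33, 5.78, 6.01 and 5.78 on mid-late arrays. On this probe set only late regressed array 3 stood clear of the other arrays, and the groups overlapped. The difference of late regressed from mid-late glands was 0.40 (SE 0.32), with a limma adjusted p of 0.432. A further PLAUR probe set of nearly the same mean gave 0.80 (limma adjusted p 0.228). It had 7.71 and 7.43 on late regressed arrays 2 and 3 and at most 6.31 on any other array. Without late regressed arrays 2 and 3 the difference of the main probe set was -0.10 and that of the further one -0.13.

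SERPINE2, or protease nexin-1, inhibits urokinase and thrombin at the cell surface and had 11.17, 11.08, 10.55 and 9.73 on late regressed arrays, 11.28, 11.31, 11.16 and 9.96 on late functional arrays and 10.22, 11.37, 9.61 and 9.94 on mid-late arrays. High and low glands occurred in every group, and late functional array 4, mid-late arrays 1, 3 and 4 and late regressed array 4 were on the low side. The 4 SERPINE2 probe sets gave late regressed minus mid-late differences between 0.11 and 0.43, none of which passed. SERPINA5, the protein C inhibitor, which also inhibits urokinase, showed 9.85, 7.48, 9.22 and 10.29 on late regressed arrays, 9.26, 9.29, 9.10 and 11.20 on late functional arrays and 10.02, 9.68, 8.004 and 7.71 on mid-late arrays. Its within-group spread, from 0.99 to 1.24 as an SD, was larger than any difference between group means, the largest of which was 0.86. PLG, which encodes plasminogen itself and is made mainly by liver, had 3.26, 3.26, 3.32 and 3.40 on late regressed arrays, 3.29, 3.14, 3.29 and 3.32 on late functional arrays and 3.43, 3.30, 3.41 and 3.17 on mid-late arrays. All 4 PLG probe sets lay at low signal on every array. SERPINB2, the plasminogen activator inhibitor of macrophages, had 3.005, 5.03, 3.95 and 3.03 on late regressed arrays, 3.11, 2.90, 2.91 and 3.03 on late functional arrays and 3.18, 3.08, 3.09 and 3.19 on mid-late arrays. It was above 4.64 on late regressed array 2 alone, and its limma adjusted p was 0.258 against mid-late and 0.421 against late functional glands.

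**Figure D2:**
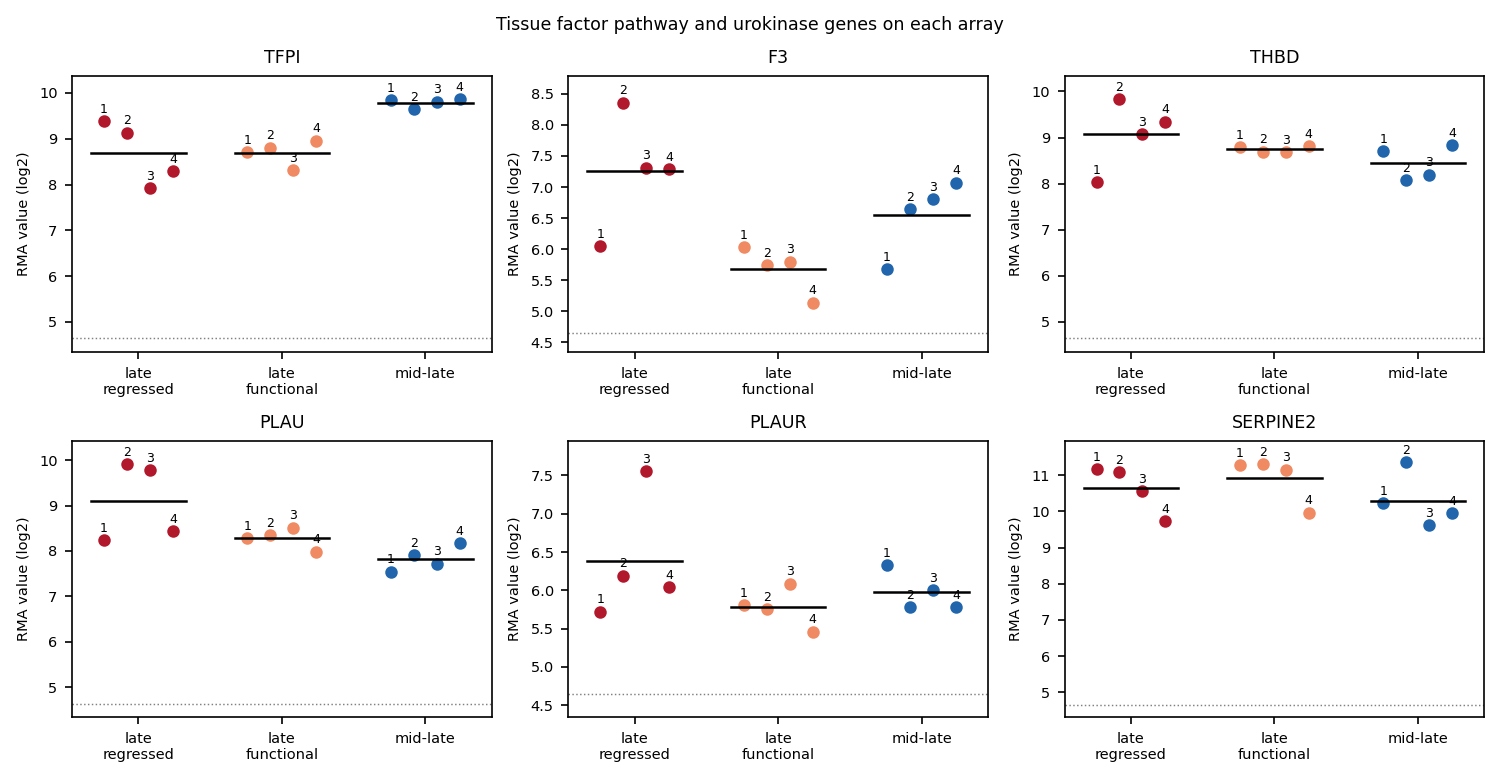
RMA log2 values of TFPI, F3, THBD, PLAU, PLAUR and SERPINE2 on each array, numbered by replicate, with bars at the group means of 4 arrays and a dotted line at the low-signal limit of 4.64. TFPI lies below every mid-late value on all 8 late arrays, PLAU is highest on late regressed arrays 2 and 3, and F3 is lower on all late functional arrays than on any late regressed array.

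The inhibitors of clotting held the called decrease with the largest fold. TFPI, the Kunitz-type inhibitor of tissue factor with factor VIIa and of factor Xa, is made largely by endothelium and had 9.38, 9.13, 7.92 and 8.30 on late regressed arrays, 8.70, 8.80, 8.31 and 8.96 on late functional arrays and 9.84, 9.65, 9.81 and 9.87 on mid-late arrays. Neither late group overlapped with the mid-late glands, whose values lay between 9.65 and 9.87, and the late groups overlapped with one another. Group means were 8.68 ± 0.69 in late regressed, 8.69 ± 0.27 in late functional and 9.79 ± 0.10 in mid-late glands (SD, n = 4 each). Between late regressed and mid-late glands TFPI fell 2.16-fold, a log2 difference of -1.11 (SE 0.27) with a limma adjusted p of 0.0295. Late functional glands differed from mid-late by almost the same amount, -1.10 (SE 0.27), but with a limma adjusted p of 0.077, and late regressed from late functional by -0.01 (limma adjusted p 0.994). Since the late groups share the mid-late arrays in these comparisons, the similar sizes are not independent of each other. By limma's F test across all 3 groups TFPI was called with an adjusted p of 0.0464.

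The TFPI decrease did not rest on late regressed arrays 2 and 3 in size: without them the late regressed difference was -0.95, with a limma adjusted p of 0.0781. In single-array omissions the difference stayed between -1.34 and -0.85. The call was lost without late regressed array 3 (0.0604) or 4 (0.0508) and without mid-late array 1 (0.0704), 2 (0.0611), 3 (0.0631) or 4 (0.0606). Against mid-late, the late functional decrease was called with only those groups in the fit (limma adjusted p 0.00792), with array weights (0.014), without late regressed arrays 2 and 3 (0.0222) and without late regressed array 3 alone (0.0431). Beside it, the 11 measured endothelial markers averaged 8.28 to 8.59 per array in late regressed, 8.24 to 8.38 in late functional and 8.13 to 8.24 in mid-late glands. None of the 11 was at low signal, and 4 of them rose and 0 fell between late regressed and mid-late glands. Their part in the TFPI difference was not tested.

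TFPI2, a related inhibitor that also acts on plasmin, had 6.79, 6.54, 6.57 and 4.23 on late regressed arrays, 6.70, 6.52, 6.55 and 4.65 on late functional arrays and 5.71, 8.25, 5.52 and 5.66 on mid-late arrays. Single glands stood out in each group, with mid-late array 2 high and array 4 of either late group low. The largest difference of group means was -0.25, late regressed minus mid-late, and no comparison passed. THBD, thrombomodulin, binds thrombin on endothelium and turns it towards activating protein C, and it had 8.03, 9.84, 9.07 and 9.34 on late regressed arrays, 8.79, 8.69, 8.69 and 8.82 on late functional arrays and 8.70, 8.08, 8.20 and 8.83 on mid-late arrays. Late regressed arrays 2, 3 and 4 were above all other glands while array 1 was the lowest of the 12. The difference from mid-late glands was 0.62 (SE 0.31) with a limma adjusted p of 0.203. It was called without late regressed array 1 (0.96, adjusted p 0.0136). Another THBD probe set was called with all arrays (0.68, limma adjusted p 0.0453), and the remaining ones gave 0.46 and -0.22. Without late regressed arrays 2 and 3 that called probe set gave 0.32 (limma adjusted p 0.274) and the main one 0.23 (0.718).

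SERPIND1 is heparin cofactor II, a thrombin inhibitor activated by dermatan sulphate and known chiefly as a liver product. It had 8.89, 4.23, 4.18 and 8.40 on late regressed arrays, 8.51, 8.25, 8.34 and 9.64 on late functional arrays and 8.68, 8.54, 8.47 and 8.44 on mid-late arrays. Late regressed arrays 2 and 3 lay below the low-signal limit and the other 10 arrays between 8.25 and 9.64, so the late regressed group was split and its other arrays overlapped with both other groups. The difference from mid-late was -2.11 (SE 0.95) (limma adjusted p 0.164) and that from late functional -2.26 (SE 0.95) (limma adjusted p 0.384). Without arrays 2 and 3 these differences were 0.11 and -0.04. Without late regressed array 1 the decrease against mid-late was called at -2.93 (limma adjusted p 0.0412). The gene has 1 probe set, so no second measurement was at hand.

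Among liver markers measured beside it, 3 of 4 (AHSG, APOA2 and APOH) lay at low signal over the 12 arrays. The remaining one, APOA1, had a mean of 12.24. Its late regressed minus mid-late difference was -0.76 (limma adjusted p 0.061). All 4 together averaged 5.30 to 5.66 on late regressed, 5.63 to 5.78 on late functional and 5.72 to 5.81 on mid-late arrays. Steroidogenic markers were lowest on the same late regressed arrays 2 and 3, at means of 8.47 and 8.31, against 9.98 and 9.55 on late regressed arrays 1 and 4. Their part in the SERPIND1 difference was not tested. SERPINC1, antithrombin, the main plasma inhibitor of thrombin, had 4.18, 4.27, 4.02 and 4.36 on late regressed arrays, 4.22, 4.13, 4.11 and 4.15 on late functional arrays and 4.51, 4.43, 4.14 and 4.48 on mid-late arrays. It stayed at low signal on every array, as did SERPINA10, the protein Z-dependent inhibitor of factor Xa.

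Of the 9 clotting factors 0 rose and 0 fell between late regressed and mid-late glands, with limma adjusted p-values from 0.0668 to 0.668. F3, tissue factor, the membrane receptor of factor VIIa that starts clotting, had 6.05, 8.36, 7.31 and 7.29 on late regressed arrays, 6.03, 5.74, 5.80 and 5.14 on late functional arrays and 5.68, 6.65, 6.81 and 7.07 on mid-late arrays. All 4 late regressed values lay above all late functional ones, by 0.02 for late regressed array 1, while mid-late glands overlapped with both late groups. The late regressed glands exceeded the late functional ones by 1.58 (SE 0.43), a 2.99-fold difference that did not pass (limma adjusted p 0.227). It was called without late regressed array 1 (1.98, adjusted p 0.0261). Without late regressed arrays 2 and 3 it was 1.00 (limma adjusted p 0.656). Against mid-late glands the late regressed difference was 0.70 (limma adjusted p 0.293) and the late functional one -0.87 (limma adjusted p 0.297).

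F5, the cofactor of factor Xa, had 6.02, 4.99, 4.56 and 4.71 on late regressed arrays, 5.92, 5.67, 6.15 and 5.50 on late functional arrays and 5.08, 5.93, 5.97 and 5.81 on mid-late arrays. On late regressed arrays 2, 3 and 4 it lay below every other gland, and array 1 was among the highest. Its difference of -0.63 (SE 0.30) from mid-late did not pass (limma adjusted p 0.187), but passed without late regressed array 1 (-0.95, adjusted p 0.0198). Without that array it also passed against late functional glands (-1.06, adjusted p 0.0438). With late regressed arrays 2 and 3 left out, the difference from mid-late was -0.33 (limma adjusted p 0.635). A second F5 probe set, at low signal, was called lower with all arrays (-0.50, limma adjusted p 0.028).

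F13A1, the catalytic subunit of the fibrin-crosslinking transglutaminase and a gene of macrophages and platelets, had 7.97, 7.87, 7.31 and 7.71 on late regressed arrays, 7.79, 8.14, 7.93 and 7.95 on late functional arrays and 7.86, 7.64, 7.88 and 8.01 on mid-late arrays. The groups overlapped and the largest difference of group means was -0.24, between the late groups (limma adjusted p 0.548). F13B, the carrier subunit, had 7.42, 7.86, 7.25 and 7.14 on late regressed arrays, 7.32, 7.67, 7.48 and 7.30 on late functional arrays and 6.78, 7.05, 7.08 and 6.95 on mid-late arrays. Both late groups lay above mid-late, by 0.46 (limma adjusted p 0.0668) in late regressed and 0.48 (limma adjusted p 0.123) in late functional glands. The late functional difference was called with only those groups in the fit (adjusted p 0.0338) and without late regressed array 2 (0.047), and the late regressed one without late regressed array 4 (0.55, adjusted p 0.0398). The second F13B probe set was at low signal and gave -0.08.

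F2, prothrombin, had 4.25, 3.87, 3.73 and 4.09 on late regressed arrays, 3.93, 3.91, 3.98 and 4.07 on late functional arrays and 4.20, 4.06, 3.99 and 4.03 on mid-late arrays. F10, factor X, had 4.53, 4.62, 4.40 and 4.51 on late regressed arrays, 4.39, 4.42, 4.31 and 4.51 on late functional arrays and 4.70, 4.65, 4.38 and 4.57 on mid-late arrays. F2 did not reach 4.64 on any array, F10 did so on 2 of 12 with a mean below it, and F9 did so on none. F7 and F12 were above the limit by less than 1 log2 unit in their means and differed from mid-late by -0.30 and -0.25 in late regressed glands. The F7 difference was called without mid-late array 4 (-0.45, limma adjusted p 0.0226), whose 5.02 was the lowest mid-late value.

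The protease-activated receptors F2R, F2RL1 and F2RL2 lie next to each other in the macaque RefSeq gene order, and none was called. F2R, or PAR1, the thrombin receptor of vascular cells, had 7.43, 8.15, 7.85 and 7.67 on late regressed arrays, 7.80, 7.99, 7.50 and 7.79 on late functional arrays and 8.20, 7.89, 7.93 and 8.04 on mid-late arrays. The groups overlapped and the late regressed glands differed from mid-late by -0.24 (limma adjusted p 0.305). A second F2R probe set, also above low signal, did otherwise, with 6.88, 8.66, 9.89 and 6.69 on late regressed arrays, 7.80, 7.72, 8.18 and 7.01 on late functional arrays and 4.60, 5.43, 6.81 and 6.20 on mid-late arrays. Its late regressed minus mid-late difference was 2.27 (SE 0.67) with a limma adjusted p of 0.0523, and 1.03 without late regressed arrays 2 and 3. The direction of F2R therefore depends on the probe set. F2RL1, or PAR2, a receptor cut by trypsin-like proteases, had 6.35, 9.86, 8.13 and 8.03 on late regressed arrays, 8.01, 7.71, 7.59 and 7.85 on late functional arrays and 7.94, 7.45, 8.19 and 8.89 on mid-late arrays. Its late regressed group held both the highest and the lowest of the 12 values, on arrays 2 and 1. The main probe set of F2RL2, or PAR3, was at low signal on every array. A second F2RL2 probe set exceeded the limit on late regressed array 2 alone, at 5.04.

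Thrombospondins were all above low signal and none was called, with limma adjusted p-values between 0.0576 and 0.598 for late regressed against mid-late glands. THBS2, an inhibitor of angiogenesis made by fibroblasts, had 7.67, 8.05, 7.57 and 6.29 on late regressed arrays, 6.26, 6.55, 7.27 and 5.51 on late functional arrays and 5.49, 5.16, 6.01 and 6.84 on mid-late arrays. Late regressed arrays 1 to 3 lay above all other glands, late regressed array 4 did not, and the mid-late values ran from 5.16 to 6.84. The difference from mid-late was 1.52 (SE 0.46), 2.87-fold, with a limma adjusted p of 0.0576. It was called without late regressed array 4 (1.89, adjusted p 0.0246), without mid-late array 4 (1.84, 0.0417) and when only probe sets above low signal were tested (0.043). Without late regressed arrays 2 and 3 it was 1.11 (adjusted p 0.286). Beside it, the 8 measured fibroblast markers, none at low signal, averaged 8.32 to 8.64 in late regressed, 8.10 to 8.45 in late functional and 7.71 to 8.60 in mid-late glands. Of these markers 4 rose and 0 fell between late regressed and mid-late glands, and their part was not tested.

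THBS1, which activates latent TGF-beta and restrains endothelial cells through CD36, had 7.21, 8.71, 8.05 and 6.65 on late regressed arrays, 7.29, 7.72, 7.12 and 5.17 on late functional arrays and 6.64, 6.55, 7.22 and 6.96 on mid-late arrays. The highest of the 12 were late regressed arrays 2 and 3 and the lowest late functional array 4. The difference of late regressed from mid-late was 0.81 (SE 0.53) (limma adjusted p 0.331), and 0.09 without arrays 2 and 3. Its 4 other probe sets above low signal gave differences from -0.27 to 1.43, of which 2 shared the sign of the brightest. THBS4, a pentameric thrombospondin of muscle, tendon and vessel walls, had 9.99, 9.71, 10.67 and 9.05 on late regressed arrays, 9.49, 9.46, 8.93 and 8.98 on late functional arrays and 9.23, 10.21, 9.41 and 9.50 on mid-late arrays. The groups overlapped and the late regressed difference was 0.27 (limma adjusted p 0.598). THBS3 differed by 0.11 (limma adjusted p 0.442).

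**Figure D3:**
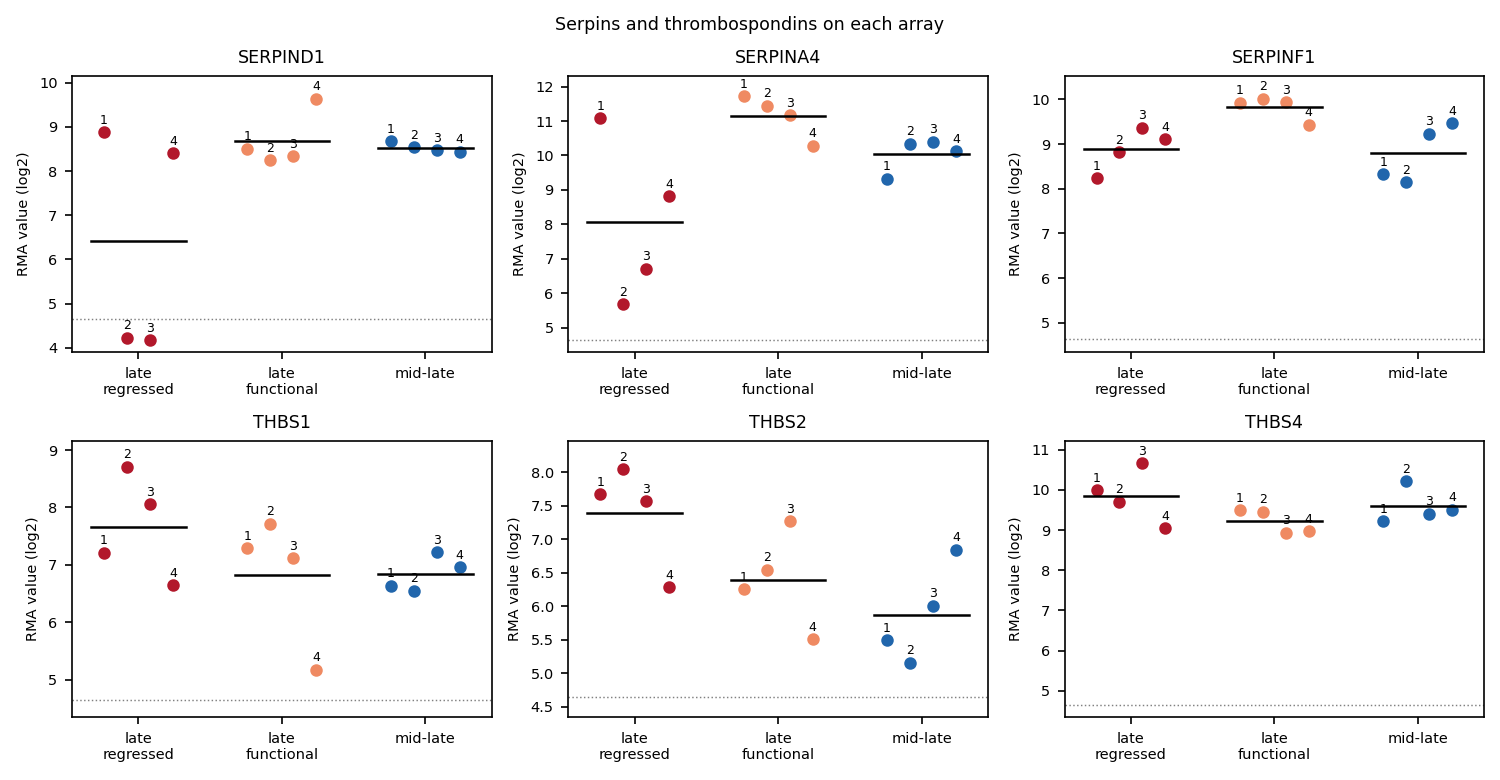
RMA log2 values of SERPIND1, SERPINA4, SERPINF1, THBS1, THBS2 and THBS4 on each array, numbered by replicate, with bars at the means of 4 arrays and a dotted line at the low-signal limit of 4.64. Late regressed arrays 2 and 3 are the lowest for SERPIND1 and SERPINA4, and SERPINF1 is higher on every late functional array than on any late regressed array.

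The other secreted serpins of clade A comprised 8 genes, of which 0 rose, 1 fell and 7 did not pass between late regressed and mid-late glands. SERPINA4, kallistatin, which inhibits tissue kallikrein, had 11.08, 5.69, 6.71 and 8.81 on late regressed arrays, 11.72, 11.45, 11.17 and 10.29 on late functional arrays and 9.32, 10.35, 10.40 and 10.13 on mid-late arrays. Late regressed arrays 2, 3 and 4 lay below every other gland, array 2 by the most, and array 1 lay among the late functional ones. The mean difference was -3.08 (SE 0.90) from late functional and -1.98 (SE 0.90) from mid-late glands, with limma adjusted p-values of 0.246 and 0.169. Both passed without late regressed array 1, at -4.09 (adjusted p 0.0138) and -2.98 (0.0121). Without arrays 2 and 3 they were -1.21 and -0.10. The second SERPINA4 probe set was at low signal.

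SERPINA6, the corticosteroid-binding globulin, which carries cortisol and progesterone in blood, had 4.79, 3.90, 4.01 and 5.07 on late regressed arrays, 4.98, 4.81, 4.70 and 4.62 on late functional arrays and 5.53, 5.81, 4.81 and 5.24 on mid-late arrays. Late regressed arrays 2 and 3 were below the low-signal limit, and mid-late array 3 overlapped with the late groups. Its difference of -0.90 (SE 0.27) from mid-late had a limma adjusted p of 0.0529. It was called without late regressed array 1 (0.038) or 4 (0.0237), without mid-late array 3 (0.0453) and when only probe sets above low signal were tested (0.0409). Without late regressed arrays 2 and 3 it was -0.42 (adjusted p 0.333). SERPINA9, known from germinal-centre B cells, fell between late regressed and mid-late glands. Its arrays had 4.31, 4.59, 4.47 and 4.57 on late regressed arrays, 4.73, 4.43, 4.75 and 4.57 on late functional arrays and 4.96, 4.85, 4.86 and 4.75 on mid-late arrays. The groups of late regressed and mid-late arrays did not overlap, but 6 of the 12 values lay at or below 4.64. The difference was -0.37 (SE 0.09) with a limma adjusted p of 0.0306, and -0.41 without late regressed arrays 2 and 3 (0.0881). The call was lost without late regressed array 3 (0.071) as well as without mid-late array 1 (0.0792), 2 (0.069) or 3 (0.064). The mean of SERPINA9 over the 12 arrays, 4.65, was barely above the low-signal limit of 4.64. Beside it, the mean of the NC probe sets was 3.48 to 3.58 on late regressed, 3.53 to 3.61 on late functional and 3.65 to 3.75 on mid-late arrays.

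SERPINA1, alpha-1-antitrypsin, the inhibitor of neutrophil elastase, had 8.49, 8.14, 7.97 and 8.40 on late regressed arrays, 7.52, 7.77, 7.42 and 8.75 on late functional arrays and 8.002, 7.88, 7.91 and 7.78 on mid-late arrays. The late regressed glands differed from mid-late by 0.36 (limma adjusted p 0.343), and late functional array 4 was the highest of the 12. Its other probe sets above low signal gave 0.08, 1.24 and 1.30, the last 2 with their highest values on late regressed array 3, and none was called. SERPINA3, alpha-1-antichymotrypsin, an acute-phase inhibitor of cathepsin G, had 7.88, 8.06, 8.05 and 7.92 on late regressed arrays, 8.14, 8.05, 7.98 and 8.02 on late functional arrays and 7.74, 7.77, 7.89 and 7.82 on mid-late arrays. On this probe set all late functional values lay above mid-late ones, by 0.24 on average (limma adjusted p 0.102), and the late regressed difference was 0.17. A dimmer SERPINA3 probe set had 3.63, 7.06, 6.97 and 3.99 on late regressed arrays, 3.85, 3.76, 3.76 and 3.93 on late functional arrays and 3.97, 3.87, 3.93 and 3.69 on mid-late arrays. There, late regressed arrays 2 and 3 stood near 7 while the other 10 arrays lay between 3.63 and 3.99, and another dim probe set had 6.68 and 6.72 on those arrays against 4.38 to 4.82 on the other 10. Neither was called (limma adjusted p 0.148 and 0.08). The second of these dim probe sets differed from mid-late by 1.17 with all arrays and by 0.22 without late regressed arrays 2 and 3. SERPINA7, SERPINA11 and SERPINA12 were at low signal.

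In the RefSeq gene order 9 of the clade A genes lie in a row with at most 1 other protein-coding gene between neighbours: SERPINA10, SERPINA6, SERPINA1, SERPINA11, SERPINA9, SERPINA12, SERPINA4, SERPINA5 and SERPINA3. The late regressed minus mid-late differences of these neighbours had no common sign. Along the row they were -0.09, -0.90, 0.36, -0.15, -0.37, -0.15, -1.98, 0.36 and 0.17. SERPINA4 and SERPINA5, next to each other in the row, both had their lowest value on late regressed array 2.

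Of the remaining serpins, SERPINF1 separated the late groups. It encodes pigment epithelium-derived factor, an inhibitor of angiogenesis that does not inhibit proteases, and had 8.24, 8.82, 9.37 and 9.11 on late regressed arrays, 9.92, 10.02, 9.93 and 9.44 on late functional arrays and 8.33, 8.14, 9.23 and 9.47 on mid-late arrays. All late functional values exceeded all late regressed ones, and the mid-late glands spread over both sides of the late regressed mean. Late regressed minus late functional was -0.94 (SE 0.31), a 1.92-fold difference, with a limma adjusted p of 0.283. Late functional minus mid-late was 1.03 (SE 0.31) (limma adjusted p 0.12). SERPINH1, the collagen chaperone HSP47 of the endoplasmic reticulum, had 9.98, 10.21, 10.15 and 10.20 on late regressed arrays, 9.94, 9.85, 9.92 and 9.71 on late functional arrays and 10.17, 9.98, 10.17 and 10.03 on mid-late arrays. On this probe set late functional values were below all late regressed and all mid-late ones, by small amounts. Late regressed minus late functional was 0.28 (limma adjusted p 0.243) and late functional minus mid-late -0.23 (0.162). A second SERPINH1 probe set was called higher in late regressed than in mid-late glands (0.35, limma adjusted p 0.0269), while the main one gave 0.05. Without late regressed arrays 2 and 3 the second gave 0.26 (limma adjusted p 0.103). On that second probe set all late functional values lay above all mid-late ones (0.14, limma adjusted p 0.39), opposite to the main one. SERPINI1, neuroserpin, an inhibitor of the tissue-type activator, had 6.12, 5.77, 5.30 and 5.60 on late regressed arrays, 5.83, 5.91, 5.81 and 4.97 on late functional arrays and 5.72, 5.95, 5.81 and 5.76 on mid-late arrays. Its groups overlapped and no comparison passed. SERPINI2 was at low signal.

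Clade B serpins act inside cells, and 5 of the 7 not named so far were at low signal. SERPINB9, the granzyme B inhibitor that protects cytotoxic cells, had 6.33, 6.90, 6.79 and 6.40 on late regressed arrays, 6.47, 6.67, 6.61 and 6.53 on late functional arrays and 6.87, 6.42, 6.37 and 6.71 on mid-late arrays. Its group means lay within 0.04 of each other. SERPINB6, an inhibitor of cathepsin G and trypsin-like proteases, differed by -0.28 between late regressed and mid-late glands (limma adjusted p 0.206). SERPINB7, megsin, was the single member called between late functional and mid-late glands, at low signal, with 3.43, 3.52, 3.45 and 3.51 on late regressed arrays, 3.45, 3.29, 3.34 and 3.36 on late functional arrays and 3.76, 3.73, 3.63 and 3.62 on mid-late arrays. Mid-late values lay above those of both late groups. The late functional difference was -0.32 (SE 0.06) with a limma adjusted p of 0.0433, and limma's F test gave an adjusted p of 0.0332. It was called in 2 of the 12 fits that left out 1 array, those without late regressed array 2 or 3, and its difference in all 12 lay between -0.35 and -0.30. The 10 omissions that ended it were those of late regressed arrays 1 (0.0539) and 4 (0.0515), of late functional arrays 1 to 4 (0.0691, 0.133, 0.123 and 0.0837) and of mid-late arrays 1 to 4 (0.106, 0.105, 0.0712 and 0.0569). The NC probe sets were also lower in late than in mid-late glands, by the values given above for SERPINA9, and their part was not tested.

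F11R, the junctional adhesion molecule named above, had 9.96, 10.23, 9.51 and 9.93 on late regressed arrays, 9.47, 9.46, 9.81 and 9.93 on late functional arrays and 9.07, 9.46, 9.32 and 9.23 on mid-late arrays. Late regressed and mid-late glands did not overlap, nor did late functional and mid-late ones, which came within 0.01 of each other. The rise in late regressed glands was 1.56-fold, 0.64 (SE 0.16) on the log2 scale, with a limma adjusted p of 0.0297, and 0.68 (0.0504) without late regressed arrays 2 and 3. The call was lost without late regressed array 2 (0.059) and without mid-late array 1 (0.0799), 3 (0.0576) or 4 (0.0604). Another pair of F11R probe sets above low signal pointed the other way, with -0.10 and -0.46, both lowest on late regressed array 2. The mean over all 4 F11R probe sets differed by 0.003.

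**Figure D4:**
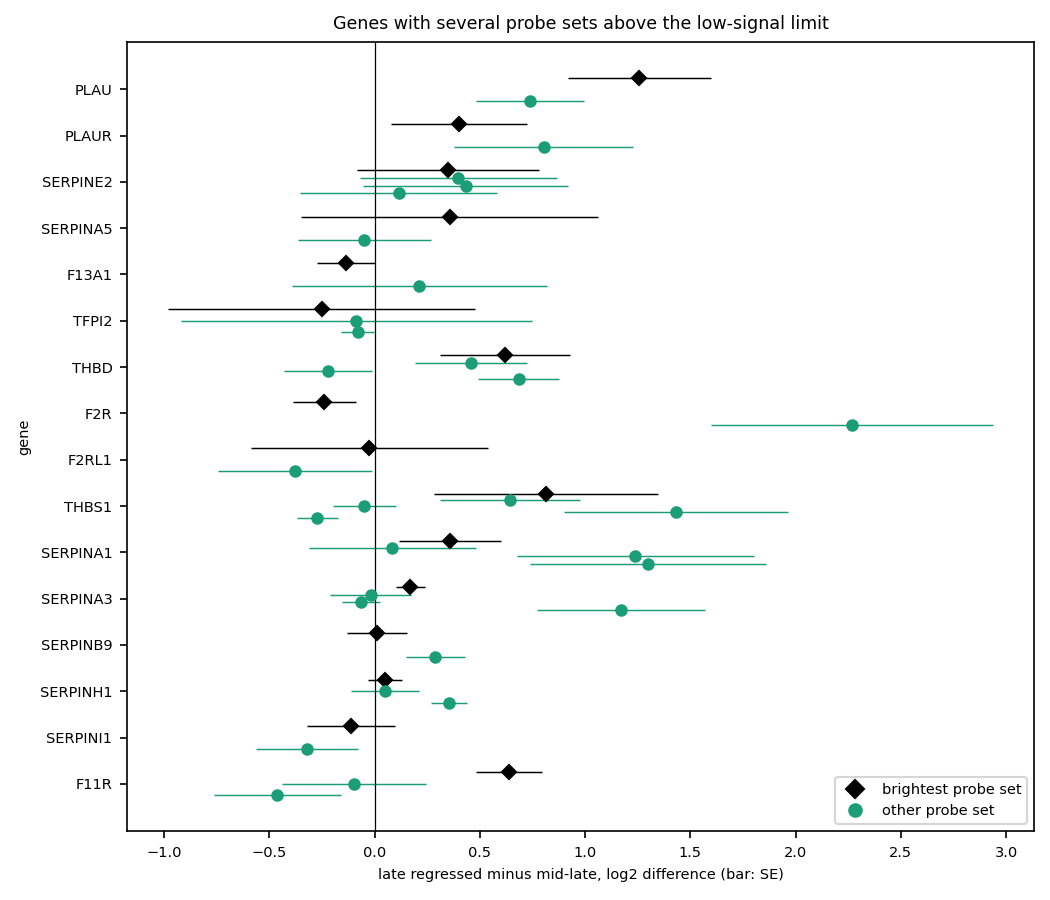
Late regressed minus mid-late log2 differences, with SE, for the 16 members that have several probe sets above low signal. Black diamonds mark the brightest probe set and green circles the others, with PLAU and SERPINE2 on one side of 0, and F2R and F11R on both sides.

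Across the 16 members with several probe sets above low signal, 20 of the 30 other probe sets shared the sign of the brightest in late regressed against mid-late glands, and 2 of the 30 were called. In late regressed against late functional glands 19 of 30 shared it, and in late functional against mid-late glands 20 of 30. Of the 4 genes called between late regressed and mid-late glands, TFPI and SERPINA9 have 1 probe set, PLAU had a second with the same sign and F11R had others with the opposite sign.

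Late regressed against late functional glands, which compares the same days at lower and higher serum progesterone, gave 0 called members by limma (3 without late regressed array 1) and 8 at an unadjusted p below 0.05 (16.7%, against 16.1% of all genes). Here 0.00708% of all genes, a single gene that is not a member, passed. The groups did not overlap for 3 members (6.25%, against 5.91% of all genes), F3 and SERPINH1 on the higher and SERPINF1 on the lower side. The members' median difference was 0.02, that of all genes 0.003, while for the 31 members above low signal it was -0.01. In size the differences ran from -3.08 for SERPINA4 to 1.58 for F3.

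Late functional against mid-late glands gave 1 called member, SERPINB7 (2.08%, against 1.17% of all genes, 0.58% as higher and 0.594% as lower). The members' count was 2 without late regressed array 2 or 3 and 0 without any other single array. It was 3 without late regressed arrays 2 and 3 together, where 5.71% of all genes passed. At an unadjusted p below 0.05 there were 10 members (20.8%, against 20.1% of all genes). The groups did not overlap for 7 members (14.6%, against 18.9% of all genes): TFPI, SERPINB7, SERPINA10 and SERPINH1 on the lower side, and SERPINA3, F13B and F11R on the higher. The members' median difference was -0.13 and that of all genes -0.006, while for the 31 members above low signal it was -0.03. By limma's F test 2 members, TFPI and SERPINB7, differed among the 3 groups (4.17%, against 6.65% of all genes), 8 without late regressed array 1 and 0 without late functional array 2 or 3 or any 1 of the mid-late arrays.

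**Figure D5:**
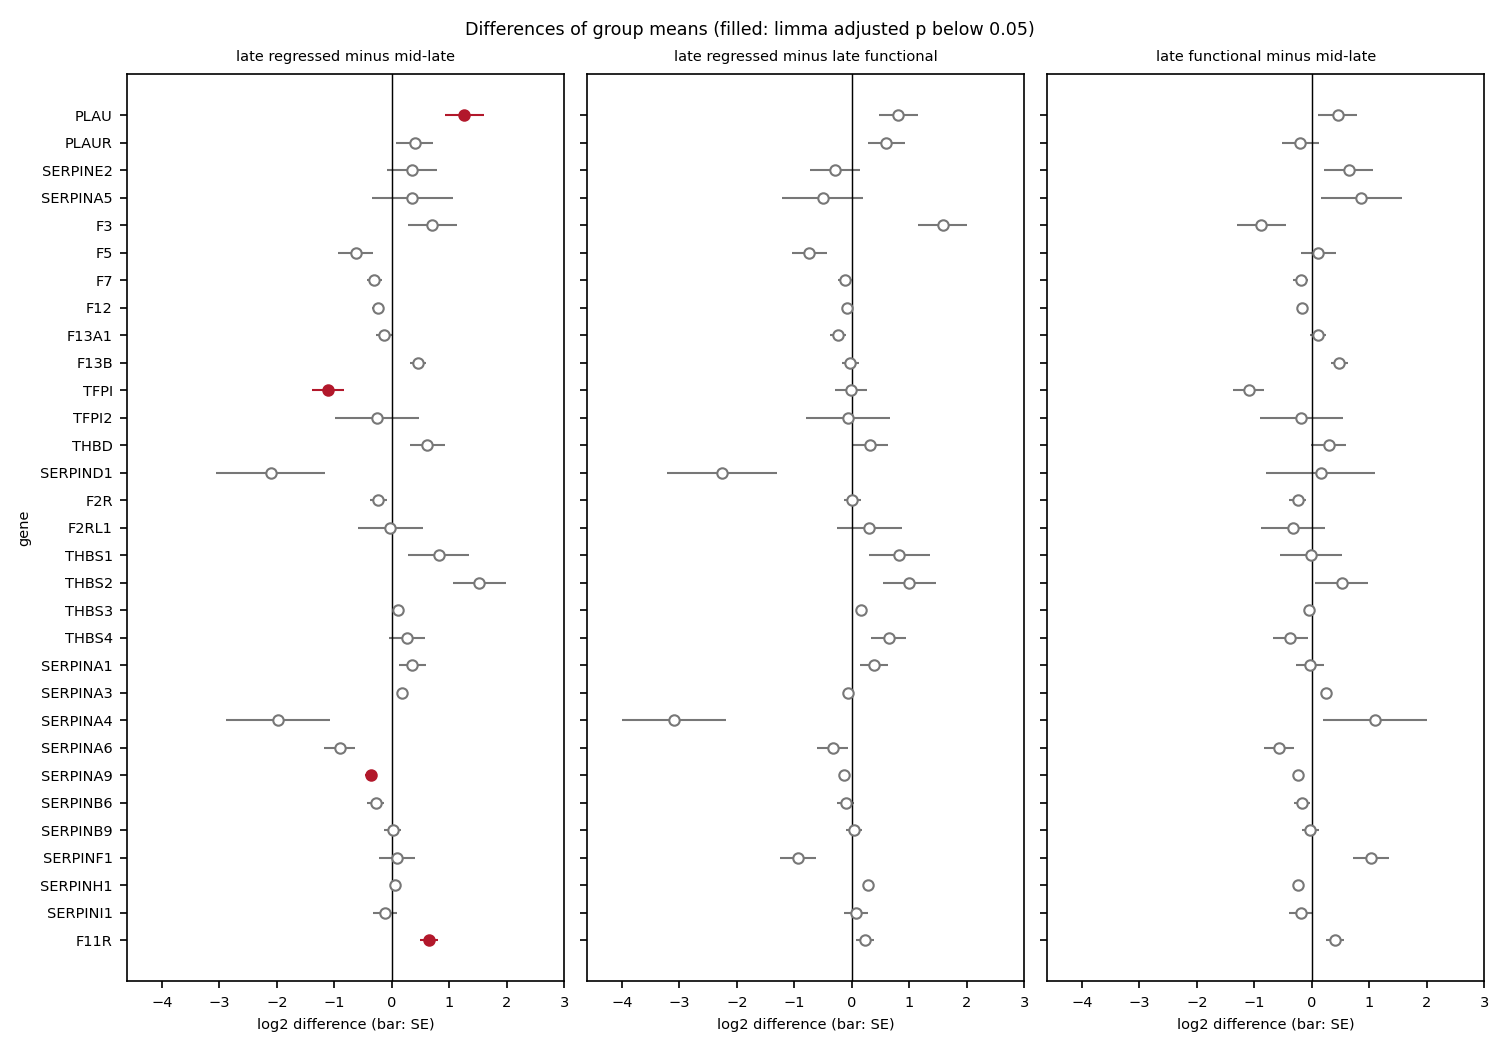
Log2 differences of group means with SE for the 31 members above low signal, late regressed minus mid-late, late regressed minus late functional and late functional minus mid-late from left to right. Filled red points passed limma's adjusted p of 0.05: PLAU, TFPI, SERPINA9 and F11R in the left panel and none in the other panels, while SERPINA4 and SERPIND1 have the longest error bars.

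Partner genes of these systems were counted from 4 lists, 49 of 57 of them measured. The lists were chosen with earlier results of these data known, so their share of called genes is not a test of the partners. Between late regressed and mid-late glands 9 rose, 3 fell and 37 did not pass (24.5% called, against 13.1% of all genes). Their median difference was -0.08. Among 11 receptors and clearance receptors for plasminogen and its activators, IGF2R (0.89), which binds the urokinase receptor and lysosomal enzymes, and ITGA3 (0.54) rose and VTN (-0.73), vitronectin, fell. Of 18 cofactors, substrates and anticoagulant partners, PROS1 (1.22), the protein S cofactor of activated protein C and of TFPI, and FGL2 (1.50), a fibrinogen-like prothrombinase of macrophages and endothelium, rose. In that list PROC (-0.42) and FGA (-0.38), both at low signal, fell. Of 9 thrombospondin partners, CD36 (1.92), the thrombospondin and fatty acid receptor, and SDC1 (2.30), a heparan sulphate proteoglycan, rose. Of 11 other proteases, ST14 (1.47), the membrane protease matriptase, HTRA1 (1.06) and FURIN (0.48) rose.

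IGF2R, PROS1 and SDC1 were called in all 12 fits that left out 1 array, FGL2 and FURIN in 10, PROC and ST14 in 9, FGA in 8, HTRA1 in 7, VTN in 3, CD36 in 2 and ITGA3 in 1. PROS1 had 8.74, 9.59, 9.59 and 10.03 on late regressed arrays, 8.51, 8.74, 8.70 and 8.996 on late functional arrays and 8.63, 7.66, 8.36 and 8.42 on mid-late arrays. All of its late regressed values were above all mid-late ones. SDC1 had 9.48, 10.71, 10.58 and 11.02 on late regressed arrays, 8.82, 8.79, 9.30 and 10.25 on late functional arrays and 8.21, 8.06, 8.22 and 8.10 on mid-late arrays. Both late groups of SDC1 values lay above mid-late. Without late regressed arrays 2 and 3, FURIN, IGF2R and SDC1 were the 3 partners still called against mid-late, where 2.55% of all genes passed. In late regressed against late functional glands 0 of the 49 passed limma's test. There 15 of the 49 had an unadjusted limma p below 0.05, a larger share than the 16.1% of all genes. In late functional against mid-late glands 0 of the 49 passed. There 12 of the 49 had an unadjusted limma p below 0.05, a somewhat larger share than the 20.1% of all genes. With late regressed arrays 2 and 3 left out of the fit, 4 partners (CTSL, FGL2, FURIN and ST14) passed as higher in late functional than in mid-late glands, where 5.71% of all genes passed.

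The genes also differed in which gland set their spread. Late functional array 4 was farther from the mean of the other 3 arrays of its group than any of them for 18 of the 31 members above low signal (58.1%), and for 50.3% of all genes above that limit. Late regressed array 1 held that place for 11 members (35.5%, against 18.9% of all such genes) and late regressed array 2 for 8 (25.8%, against 37.7%). These shares describe the arrays, and the difference between members and all genes was not tested. Platelet markers, of which GP1BA, PPBP and TUBB1 were at low signal among 6 measured, averaged 4.19 to 5.30 per array in late regressed, 4.16 to 4.49 in late functional and 4.32 to 4.76 in mid-late glands. None of them was called in any comparison.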

How the data were processed

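Each array's probe sets have log2 values, deposited by the authors and made with RMA per the submitters' processing notes. RMA's version was not given in the sources used here. From their range the values are on the log2 scale. RMA commonly equalises array distributions, so a change in total RNA per gland cannot be seen. Array medians ran from 4.30 to 4.43. Neither scan date nor batch was given, so no batch could be tested. The 158 control probe sets (99 AFFX, 59 RPTR) were left out.

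Of the 52707 tested probe sets 24956 had exactly 1 gene symbol, 361 several and 27390 none. All 48 members were found by Entrez ID in a current RefSeq table (T2T-MMU8v2.0) and 0 symbols changed. No coordinates were used. limma 3.58.1 in R 4.3.3 was fitted to all 12 arrays with group means and no covariate. Precision is limited by the 4 arrays per group. The scripts were tested on simulated data.

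Members, lists and panel were chosen with earlier results of these data known. Members named with values on every array were those called in a comparison or by the F test, a panel of 31 genes (27 measured) and the 3 largest differences in each direction per comparison, 32 in all. F13B and the further probe sets were added after their values were seen. Alternatives changed the normalization, signal filter, prior, samples, covariates, probe set rule and arrays.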

Additional observations from a re-analysis of the deposited data

Results flagged for a closer look

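In each group of 4 arrays a gland was singled out when its gap to the nearest of the other 3, as a share of the group's range, exceeded Dixon's 95% critical value. Of 144 such groups (48 genes, 3 groups), 7 were singled out, and chance alone gives about 1 in 20, here 7.2. Late functional array 4 accounted for 5 of the 7. SERPINA5 was 11.20 on that array, against 9.10 to 9.29 on the other late functional arrays. SERPINE2 was 9.96 there, against 11.16 to 11.31, and SERPINF1 9.44, against 9.92 to 10.02. SERPINI1 was 4.97 there, against 5.81 to 5.91, and TFPI2 4.65, against 6.52 to 6.70. TFPI2 was also low on late regressed array 4, at 4.23 against 6.54 to 6.79, and high on mid-late array 2, at 8.25 against 5.52 to 5.71. These 5 genes were not called in any comparison.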

How the results depend on the processing

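The count of 4 members called between late regressed and mid-late glands (2 higher, 2 lower) became 2 with renewed quantile normalization (0 higher, 2 lower) and 2 with array weights. It was 0 with the covariate of mean NC signal, 0 when late regressed arrays 2 and 3 were omitted and 0 with only the groups compared in the fit. Leaving out 1 array at a time gave 0 to 9, with 0 without mid-late array 1 and 9 without late regressed array 1. The count of 0 between late regressed and late functional glands became 0 to 3 in these omissions, with 3 without late regressed array 1. SERPINB7, the 1 member called between late functional and mid-late glands, is removed by either signal filter before testing. The filters therefore could not keep its call. The count of 1 between late functional and mid-late glands became 0 after median centring, renewed quantile normalization, either signal filter and the NC covariate. It became 4 with array weights, 2 with the 3′ to 5′ covariate, 3 without late regressed arrays 2 and 3 (where 5.71% of all genes passed, against 1.17% with all arrays) and 3 with only the groups compared. Single omissions gave 0 to 2. The F test's count of 2 became 1 after median centring, renewed quantile normalization, either signal filter and removal of late regressed arrays 2 and 3, 0 with the NC covariate and 0 to 8 in single omissions. Here too, either signal filter removed SERPINB7 before testing. With the NC covariate 0 of all 52707 probe sets were called in either comparison against mid-late glands. The NC mean was 3.65 to 3.75 on mid-late arrays and 3.48 to 3.61 on late arrays, without overlap. This covariate and the group difference therefore cannot be told apart, and the loss of calls says nothing about single genes. No called member changed sign in any alternative. Of the called partner genes, VTN turned to 0.0548 with the NC covariate (limma adjusted p 0.977). The causes were not tested.

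The replicate numbers share only a number: deviations of same-numbered arrays correlated from -0.122 to 0.296, with 3 of 12 pairs above 0.1, and 8 of 24 best matches fell on the same number. With the replicate block the counts were 4 (3 higher, 1 lower) for late regressed against mid-late, 0 for late regressed against late functional, 0 for late functional against mid-late and 0 for the F test. Signal near background limits 17 members.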
